A study of Homo sapiens with 2 samples.

Results

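The regions described here are 750 CREB peaks of NGP cells that lay alone or in loose company, far from the transcription start sites (TSS) of the refGene catalogue. They were chosen by position from a list of 5285 deposited peaks: a peak had to lie on chromosomes 1 to 22 or X, to be missing from the authors' table of peaks within 50 kb of a refGene TSS, and to have its summit in a 1 Mb bin holding fewer than 10 peaks. They made up 15.2% of the 4938 peaks on those chromosomes (exact Clopper-Pearson 95% interval 14.2 to 16.2) and 41.5% of the 1808 peaks in bins of that kind. The other 1058 peaks of such bins, which the authors' table pairs with a TSS, are called TSS-paired scattered peaks. NGP is an established human neuroblastoma line, and the study set 1 anti-CREB ChIP-seq library against 1 input library, to find direct CREB targets downstream of the kinase-like protein CAMKV. Both libraries came from NGP cells grown in medium with 20% fetal bovine serum and harvested at 80 to 90% confluency, with no other treatment or genetic change named in the labels. Neither library had a replicate, so no value carries an error between cultures and no difference between groups of peaks was tested.

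CREB is a leucine-zipper transcription factor that binds the cAMP response element (CRE) as a dimer. Kinases of the cAMP and calcium/calmodulin pathways phosphorylate it, and it then recruits the histone acetyltransferases CBP and p300. CREB is best known from promoters, where CREs tend to lie near the start site, while distal CREB sites are commonly found at enhancers.

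The name "far from any TSS" did not hold for every one of these regions when a second catalogue was used. RefSeq starts (GRCh38.p14, the same build as the peaks) could be measured for 718 of the 750 peaks, those on chromosome 8 being left out. Their median distance to the nearest RefSeq start was 100.5 kb (quartiles 53.5 to 265.5 kb). A RefSeq start lay within 50 kb of the summit for 162 of the 718 (22.6%, 95% interval 19.6 to 25.8), within 10 kb for 39 and within 1 kb for 5. The nearest start belonged to a gene with a LOC symbol in 114 of the 162.

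Of the 5 peaks within 1 kb of a RefSeq start, 3 lay beside internal starts of protein-coding genes. PRKAR1A, the type I alpha regulatory subunit of protein kinase A, had a peak at chr17:68513062-68513228 with 5 fragments at the summit (exact Poisson 95% interval 1.62 to 11.7), a background of 0.316 fragments and a fold of 4.56. Its summit lay 343 bp downstream of a RefSeq start at 68512884, while the annotated gene begins 99.3 kb further upstream. CDH4, which encodes the adhesion protein R-cadherin, had a peak at chr20:61600335-61600496 with 4 fragments (1.09 to 10.2) and a fold of 4.01, 629 bp downstream of a start that is 347.5 kb inside the gene. DAB2IP, a Ras GTPase-activating protein, had a peak at chr9:121652191-121652453 with the same 4 fragments and fold, 642 bp downstream of a start 84.6 kb inside the gene. The other 2 lay 586 bp upstream of LOC105374777 on chromosome 2 (4 fragments) and 928 bp upstream of LOC107984309 on chromosome 11 (5 fragments). Internal here means only inside the annotated ends of the gene. RefSeq gives 5 starts for PRKAR1A, 2 for CDH4 and 3 for DAB2IP. Which of them serves as the main start was not tested. All 5 peaks rested on 4 or 5 fragments.

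The 250 bases before the 3 coding-gene starts are shown because these are the promoters the authors' table does not pair with a peak. They are read 5′ to 3′ on the plus strand of GRCh38.p14, from the RefSeq promoter table, with the short CRE motif (TGACG, or CGTCA on the other strand) in capitals. The windows are chr17:68512634-68512883 for PRKAR1A, chr20:61599511-61599760 for CDH4 and chr9:121651384-121651633 for DAB2IP.
PRKAR1A: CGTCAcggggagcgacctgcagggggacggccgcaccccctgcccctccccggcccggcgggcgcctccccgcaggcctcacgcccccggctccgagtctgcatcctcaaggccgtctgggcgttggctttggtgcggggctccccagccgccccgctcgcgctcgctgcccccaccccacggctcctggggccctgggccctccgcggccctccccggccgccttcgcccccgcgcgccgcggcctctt
CDH4: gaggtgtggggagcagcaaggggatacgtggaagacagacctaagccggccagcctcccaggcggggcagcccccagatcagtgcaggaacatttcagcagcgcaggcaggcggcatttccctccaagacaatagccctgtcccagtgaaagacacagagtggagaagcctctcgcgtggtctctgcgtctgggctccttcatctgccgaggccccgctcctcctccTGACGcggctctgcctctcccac
DAB2IP: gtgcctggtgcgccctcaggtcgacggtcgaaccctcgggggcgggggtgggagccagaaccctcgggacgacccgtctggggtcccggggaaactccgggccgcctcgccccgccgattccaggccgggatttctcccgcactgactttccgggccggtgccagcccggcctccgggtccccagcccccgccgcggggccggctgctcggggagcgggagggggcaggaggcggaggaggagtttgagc
None of the 3 holds the full palindrome TGACGTCA, which contains the short motif on both strands. PRKAR1A holds the short motif 250 bases before the start, CDH4 holds one 23 bases before it, and DAB2IP holds none. Among 35116 RefSeq promoter windows of this length, 21.2% hold the short motif on either strand and 1.65% hold the full palindrome. The G and C content was 80.8% at PRKAR1A, 76.0% at DAB2IP and 63.6% at CDH4, against a median of 58.0% over all windows. The peaks themselves began 179, 575 and 558 bp past the end of the PRKAR1A, CDH4 and DAB2IP windows, so the printed bases lie beside the peaks and not under them.

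Most of the 750 peaks were thin. Fragments at each summit were worked back from the fold and p-value that the authors deposited, and the background is the number of fragments that the peak caller expected there. The fewest fragments were 4, and 292 peaks (38.9%, 95% interval 35.4 to 42.5) had exactly that number. A further 201 had 5, 100 had 6, 88 had 7 to 9 and 69 (9.20%) had 10 or more. Of the TSS-paired scattered peaks, 28.4% had 4 fragments and 12.9% had 10 or more. The median fold was 4.56 (quartiles 4.01 to 5.32), beside 4.82 (4.01 to 5.94) in the TSS-paired scattered peaks and 5.20 in the 4938 peaks. The authors' fold and q values are used here only to describe peaks within their own list. A −log10 q of 5 or more was reached by 102 of the 750 (13.6%, 95% interval 11.2 to 16.3), against 27.9% of all peaks of these chromosomes. A fold of 10 or more was reached by 17 (2.27%), against 3.5% of all. Widths had a median of 208 bp (quartiles 174 to 272), beside 219 bp in the TSS-paired scattered peaks.

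Scattered peaks were strongest within 1 kb of a TSS. The shares of strong peaks were lower with each step outwards, but past 1 kb the intervals of neighbouring classes overlapped. Among the TSS-paired peaks, those within 1 kb of a refGene TSS had a median fold of 5.62 and only 12.6% had 4 fragments. Those at 1 to 10 kb had a median fold of 4.63 with 30.6% at 4 fragments, and those at 10 to 50 kb had 4.56 with 35.0%. The far peaks, with 4.56 and 38.9%, stood close to that last class in both measures. At −log10 q of 5, the shares were 42.4% (36.3 to 48.6), 19.4% (14.6 to 24.8), 16.8% (13.8 to 20.2) and 13.6% (11.2 to 16.3) in the same order. At a fold of 10 they were 11.1%, 6.05% (3.42 to 9.78), 4.197% (2.68 to 6.23) and 2.27% (1.33 to 3.60), with overlapping intervals between neighbouring classes.

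**Figure D1:**
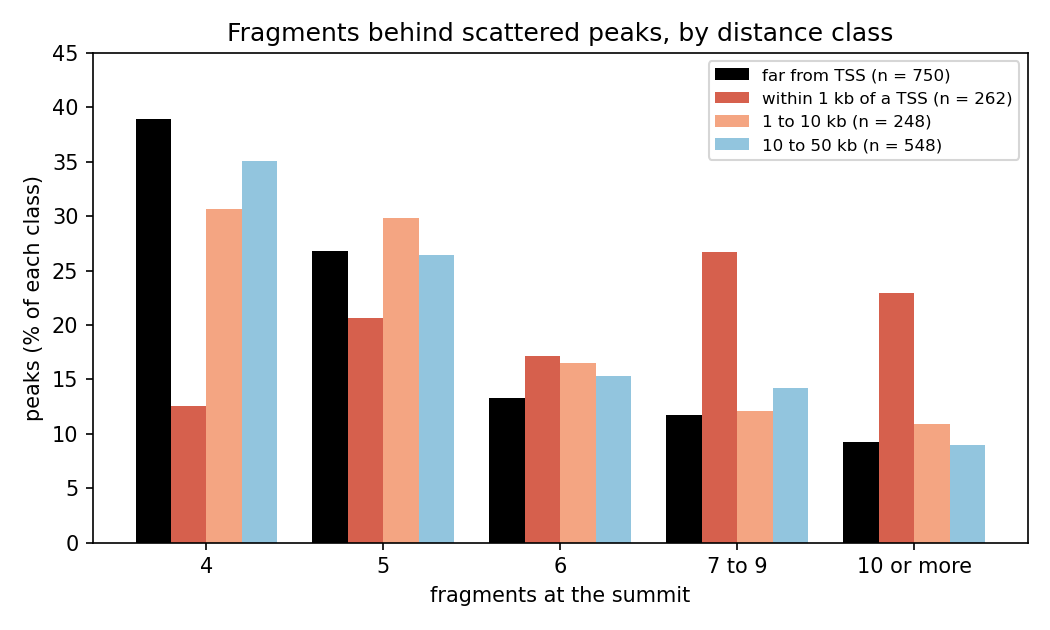
Share of scattered peaks (vertical axis, percent of each class) by the number of fragments at the summit (horizontal axis), for the 750 far peaks and for TSS-paired peaks within 1 kb, at 1 to 10 kb and at 10 to 50 kb of a refGene TSS. At 4 fragments the bars rise from 12.6% within 1 kb to 38.9% in the far peaks.

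Peaks per megabase gave the same order. The space between the outermost genes of the 22 chromosomes with RefSeq starts was divided by distance from the nearest start, leaving out bins with 10 or more peaks and the longest gene-free interval of each chromosome. Within 1 kb of a start there were 219 scattered peaks in 55.7 Mb, or 3.93 per Mb (exact Poisson 95% interval 3.43 to 4.49). Between 1 and 10 kb there were 0.650 per Mb (0.574 to 0.733), and between 10 and 50 kb 0.601 per Mb (0.553 to 0.651). Beyond 50 kb there were 538 peaks in 1243.2 Mb, or 0.433 per Mb (0.397 to 0.471), and 443 of these 538 belonged to the 750. The ratio of the nearest to the farthest class was 9.08, and with peaks of −log10 q of 5 or more it was 29.4 (1.56 against 0.0531 per Mb). The intervals of the farthest class and of the 10 to 50 kb class did not overlap in either count. Those of the 1 to 10 kb and 10 to 50 kb classes overlapped in both, so their order is not resolved. Assembly gaps and unmappable sequence were not removed from the space, and their part in these densities was not tested.

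**Figure D2:**
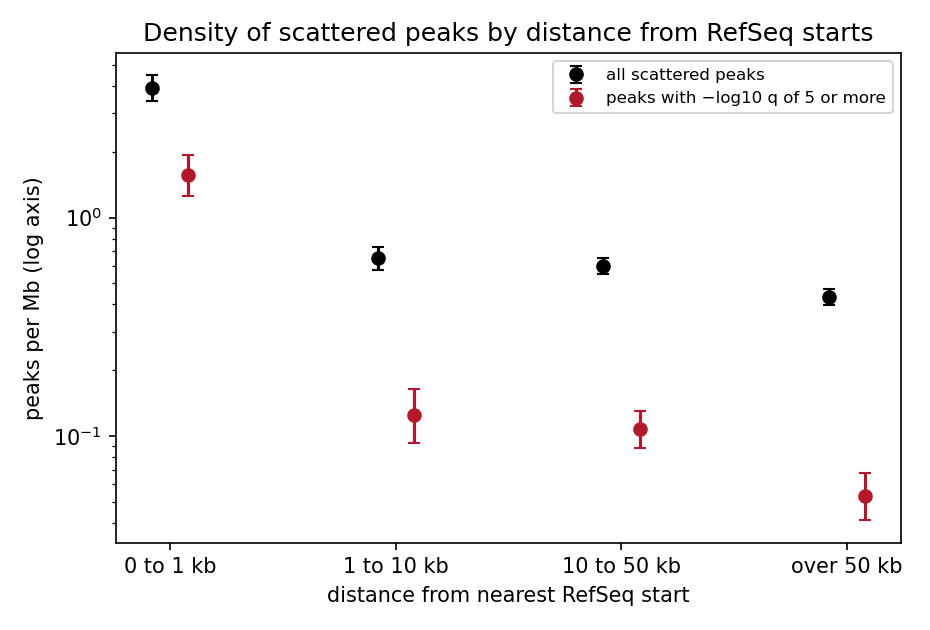
Scattered peaks per Mb (vertical log axis) by distance from the nearest RefSeq start (horizontal axis), for all peaks (black) and for peaks with a −log10 q of 5 or more (red); bars are exact Poisson 95% intervals. Both series are highest within 1 kb of a start, at 3.93 and 1.56 per Mb, and lowest beyond 50 kb, at 0.433 and 0.0531 per Mb.

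The far peaks were sorted by what RefSeq annotates at the summit. A protein-coding gene covered 258 (34.4%, 95% interval 31.0 to 37.9), another annotated gene alone covered 105 (14%), and 274 (36.5%) lay in no annotated gene. Of the 102 far peaks with a −log10 q of 5 or more, 22.5% lay in a protein-coding gene. The last 113 (15.1%, 12.6 to 17.8) lay in the longest stretch of their chromosome without any annotated gene. Such stretches hold the centromere on most human chromosomes. On the acrocentric ones they cover part of the short arm and may stop before the centromere. They ended at position 16024657 on chromosome 14, 5010453 on chromosome 21 and 10685646 on chromosome 22. None of the 1058 TSS-paired scattered peaks lay in such an interval, as pairing with a TSS makes nearly certain by construction. The annotation used gives gene ends but no exons, so peaks within genes were not divided into exonic and intronic.

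The strongest of the 750 lay in each of these settings. First by fold was the peak at chr5:10011-11783, 1773 bp wide, with a fold of 94.8. It rested on 211 fragments (183 to 241), and its background was 1.24. It was the only one of the 750 beyond the outermost annotated gene of its chromosome, near the end of the short arm, with LOC124900928 as its nearest gene at 14.5 kb. Whether repeated sequence contributed to this peak was not tested. The following 4 all lay inside protein-coding genes. A peak within SPOCK1, which encodes the matrix proteoglycan testican-1, had 49 fragments (36.3 to 64.8), a background of 0.246 and a fold of 40.1, at chr5:137410431-137410771 and 295.9 kb from the nearest RefSeq start. A peak within CA10, a carbonic anhydrase-related protein of neurons, had 44 fragments (32.0 to 59.1), a background of 0.316 and a fold of 34.2, at chr17:51700081-51700364 and 439.7 kb from a start. Among the 750, the SPOCK1 and CA10 peaks stood above every other peak within a gene, the next having a fold of 19.3. Each was the only peak in its 1 Mb bin.

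SLCO5A1, a member of the organic anion transporter family, held a peak with 25 fragments and a fold of 19.3 at chr8:69690076-69690283. TBC1D5, a regulator of Rab GTPases in endosomal sorting, held one with 22 fragments and a fold of 18.5 at chr3:17402015-17402270. TMEM132D, a transmembrane protein gene, and the ZNF664-RFLNA readthrough gene, both on chromosome 12, each held a peak with 14 fragments and a fold of 12.04. Outside genes, a peak at chr4:189233639-189234145, near the end of the long arm of chromosome 4, had 21 fragments and a fold of 16.7. A peak at chr7:84691105-84691290, 106.8 kb from the nearest annotated gene end, had 17 fragments and a fold of 13.4. Chromosome 17 supplied 6 of the 20 highest folds besides CA10, all between positions 21973007 and 25569372 and with folds from 10.6 to 13.5. The others among the highest 20 were 2 peaks of the immunoglobulin kappa locus (folds 13.5 and 10.3), a peak on chromosome 21 with 56 fragments over a background of 4.74 (fold 9.92), a peak on chromosome 16 (fold 9.88) and a peak on chromosome 1 (fold 9.63), the last tied with 4 more.

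**Figure D3:**
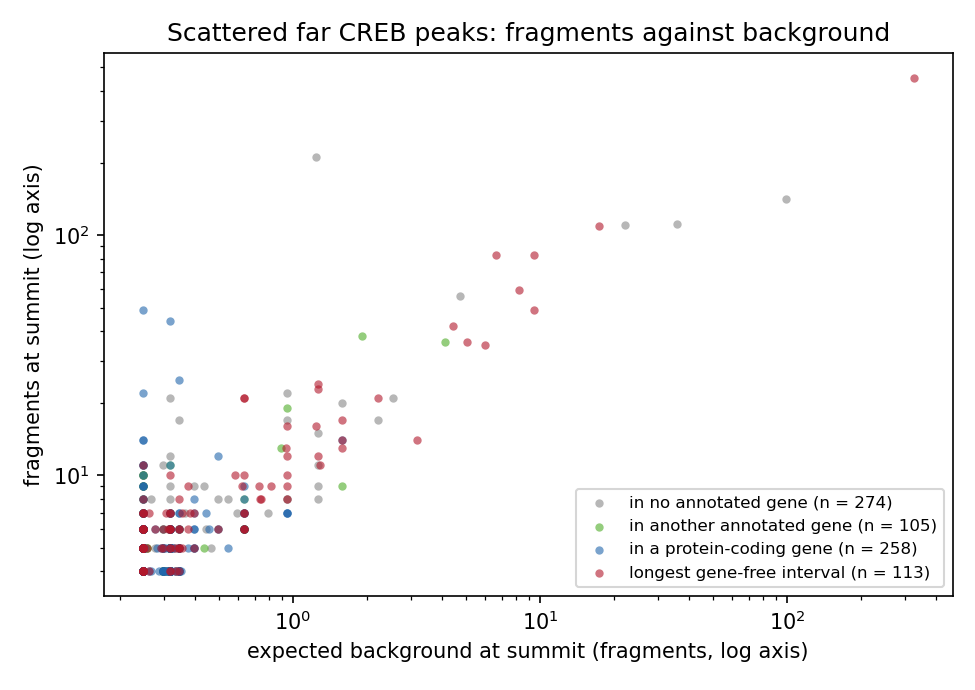
Each of the 750 far peaks by its expected background (horizontal log axis, fragments) and the fragments at its summit (vertical log axis), coloured by what is annotated at the summit. Most points sit at the lower left, with 4 to 6 fragments over 0.246 or 0.316, and the points to the right with a background above 3 are red (gene-free intervals, 10 points), grey (no gene, 4) or green (another gene, 1).

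The background was more often high in the gene-free intervals, with much overlap. It equalled 0.246 fragments, the lowest value of the list, in 354 of the 750 peaks, 36 of them in gene-free intervals, and 0.316 in 158. It exceeded 1 fragment in 35 peaks (4.67%), of which 19 lay in a gene-free interval, 12 in no gene, 3 in another annotated gene and 1 in a protein-coding gene. Within the gene-free intervals, 19 of 113 (16.8%, 95% interval 10.4 to 25.01) exceeded 1 fragment, against 2.51% (1.44 to 4.05) of the 637 peaks outside them. The 113 also had more fragments, with a median of 6 (quartiles 5 to 10) beside 5 (4 to 6), and a median fold of 5.24 beside 4.56. The extremes were a peak at chr1:125182173-125182424 with 453 fragments over a background of 327 (fold 1.38) and a pair on chromosome 16 that lay in no gene but outside the gene-free interval, chr16:34583449-34583672 with 142 over 99.3 (fold 1.43) and chr16:34586517-34586893 with 111 over 35.7 (fold 3.05). These 3 had the lowest folds of the 750. Whether repeated sequence contributed to the peaks of the gene-free intervals was not tested.

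The 113 peaks were spread unevenly over 14 of the 23 chromosomes. Chromosome 11 held 19, the X chromosome 18, chromosome 17 held 15 and chromosome 1 held 10, and no such peak was among the 750 on chromosomes 3, 4, 6, 7, 8, 14, 20, 21 and 22. The gene-free intervals of chromosomes 3, 4, 6, 7, 8 and 20 held 65 to 541 peaks in bins with 10 or more, which the rule leaves out. On chromosome 17 the bin from 25 to 26 Mb held 9 peaks, all of them among the 750, with a median of 24 fragments and a median background of 1.26. On chromosome 11 the bins from 52 to 53 and 53 to 54 Mb held 8 each, with medians of 5.5 fragments and backgrounds of 0.324 and 0.282. The density was 0.687 per Mb inside these intervals and 0.222 per Mb outside them. The space was their full length, 164.4 Mb inside and 2864.9 Mb outside, with dense bins and assembly gaps left in. Peaks of dense bins are missing from both counts, so these densities do not compare like with like.

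Outside the gene-free intervals, the number per Mb ran from 0.0363 on chromosome 19, with 2 peaks, to 0.494 on chromosome 22, with 20. The X chromosome was next lowest with 8 peaks (0.0529 per Mb), and chromosome 18 followed with 12 (0.161 per Mb). Chromosome 2 had the largest number, 76 in all and 71 outside its interval (0.296 per Mb). On chromosome 22 the gene-free interval ended at position 10685646, and 8 of the 20 peaks lay together in the bin from 15 to 16 Mb. A further 4 lay in the bin from 12 to 13 Mb, so its density rested largely on few bins. Chromosome 19 carries 24.8 protein-coding genes per Mb, the most of any, and 6 of its 73 scattered peaks (8.22%) were far from a TSS. On chromosome 2, with 5.18 genes per Mb, 52.4% of scattered peaks were far. The highest share was 59.1% on chromosome 21, with 5.12 genes per Mb, while chromosome 18, with 3.36, had 39.1%. The 50 kb limit of the rule leaves gene-dense sequence little room for far peaks, so a low share there is partly fixed by the choice. Far peaks per Mb outside the gene-free intervals were compared with protein-coding genes per Mb of the full span between outermost genes. The rates thus have different denominators. Over the 23 chromosomes, which share this library, Spearman's rho between these rates was −0.15 (Pearson's r −0.35).

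**Figure D4:**
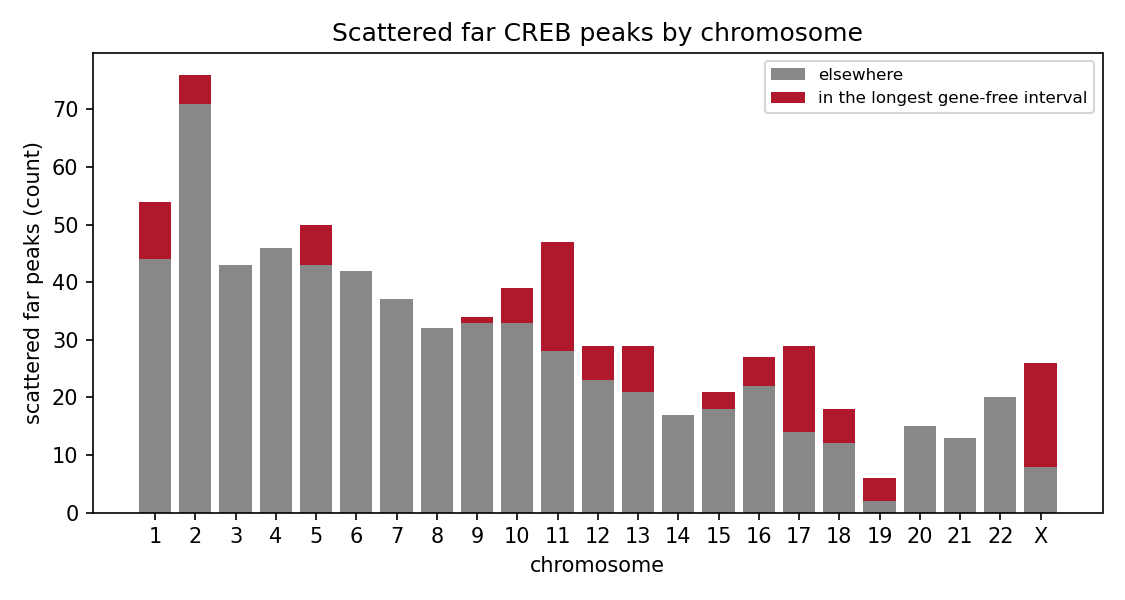
Number of far peaks on each chromosome (vertical axis), divided into those in the longest gene-free interval of the chromosome (red) and those elsewhere (grey). Chromosome 2 has the tallest bar with 76, chromosome 19 the shortest with 6, and red makes up more than grey on chromosomes 17, 19 and X.

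The peaks within protein-coding genes marked 233 genes, and 218 of these were longer than 100 kb. Among all 3351 protein-coding genes over 100 kb, 6.51% held such a peak. The share rose with length: 2.40% of genes of 100 to 200 kb, 8.23% of 200 to 500 kb, 24.5% of 500 to 1000 kb and 31.9% of the 69 genes over 1000 kb. The rule asks for more than 50 kb from a refGene TSS, so longer genes have more room for a far peak. Both this rise and the length of the genes with a peak were therefore largely fixed by the choice. The genes with a peak had a median length of 360.1 kb, against 175.0 kb for all genes over 100 kb. In the space more than 50 kb from any RefSeq start, far peaks numbered 173 in 475.8 Mb of protein-coding gene body, or 0.364 per Mb (95% interval 0.311 to 0.422). Outside protein-coding genes they numbered 270 in 767.4 Mb, or 0.352 per Mb (0.311 to 0.396). The intervals overlapped, and the space outside protein-coding genes includes the bodies of other annotated genes.

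Among single genes RBFOX1, a neuronal splicing regulator 2473.6 kb long, held the most far peaks, 4, with folds of 3.799, 4.01, 6.08 and 4.01 in order of position and 4, 4, 7 and 4 fragments. PTPRN2, a receptor-type phosphatase of dense-core vesicles, held 3, with 11, 7 and 6 fragments and folds of 9.63, 6.42 and 5.62. CACNA1C, the pore subunit of an L-type calcium channel, held 3, of which one had 12 fragments and a fold of 8.70 and the others 4 fragments each. DAB1, an adaptor in reelin signalling, held 3 with 4, 9 and 4 fragments. CNTN4, a contactin of the neuronal surface, held 3 with 4, 6 and 5 fragments, and COL23A1, a transmembrane collagen, held 3 with 4, 5 and 4. A further 14 genes held 2 each. Of these, SDK1, a synaptic adhesion gene, had its pair of summits 377 bp apart, with 8 and 11 fragments. SNTG2, a syntrophin, LPP, a focal adhesion protein, and NBPF14 were next by fold, with highest values of 6.42, 6.08 and 5.32, the last tied with ROBO2. NBPF14 is 64.6 kb long and belongs to a family of near-identical copies, so the assignment of its reads is uncertain.

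Gene lists were read against the 6.51% of all genes over 100 kb and against gene length. They were drawn up with earlier results of these data known, and no list was tested. Of 62 synaptic adhesion and neuronal surface genes over 100 kb, 16 (25.8%, 95% interval 15.5 to 38.5) held a far peak. These genes had a median length of 836.1 kb, and per Mb of gene body more than 50 kb from a RefSeq start they held 0.366 peaks (0.195 to 0.626), beside 0.369 in all long genes. After SDK1 the highest folds were in CADM2, a synaptic cell adhesion molecule, and in CNTN4, both with 5.62 and 6 fragments. NLGN1, a neuroligin gene, held 1 peak with 4 fragments. Counting only far peaks with a −log10 q of 5 or more, 1 of these 62 genes held a peak (1.61%, 0.0408 to 8.66), against 0.657% of all 3351 long genes.

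Of 73 genes for ion channels, neurotransmitter receptors and axon guidance receptors, 13 (17.8%, 9.84 to 28.5) held a far peak, and per Mb of such gene body they held 0.626 (0.358 to 1.02). Besides CACNA1C these included ROBO2, a receptor for SLIT guidance cues, with 5 and 6 fragments, and CACNA1D, a second L-type channel gene, with 5 fragments and a fold of 4.82. GRIA1, a glutamate receptor gene, held 2 peaks, the higher with 5 fragments. The 13 also include ALK, a receptor tyrosine kinase outside these kinds, which is counted again below among the neuroblastoma regulators. The list of cytoskeletal, scaffold and other very long genes had 8 of 45 (17.8%) with a peak and 0.351 per Mb (0.168 to 0.646), with PTPRN2, SNTG2 and RBFOX1 as its highest.

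The shares of the pathways that act on CREB had intervals that spanned the 6.51% of all long genes. Of 26 calcium and calmodulin genes over 100 kb, 3 held one (11.5%, 2.45 to 30.2): CALN1, a calneuron, with 5 and 4 fragments, PLCB1, a phospholipase C, with 5, and PLCL1, a related inactive protein, with 4. Per Mb of gene body more than 50 kb from a RefSeq start this list held 0.647 far peaks (0.176 to 1.66) and the cAMP and PKA list 0.338 (0.0409 to 1.22), both intervals spanning the 0.369 of all long genes. Of 34 cAMP and PKA genes, 3 held one (8.82%, 1.86 to 23.7): PRKG1, a cGMP-dependent kinase, with 6 fragments and a fold of 5.62, PRKAR1A, as described above, and ADCY5, an adenylyl cyclase, with 4 fragments. None of 7 long genes of the CREB family and its coactivators held one, which allows a share of up to 41.0%. Of 16 long genes among neuroblastoma regulators and oncogenes, 2 held one (12.5%, 1.55 to 38.3), with 0.384 per Mb of such gene body (0.0465 to 1.39). TIAM1, a Rac exchange factor, had 7 fragments (2.81 to 14.4) and a fold of 5.73, and ALK, the receptor tyrosine kinase mutated in familial neuroblastoma, had 4 fragments (1.09 to 10.2) and a fold of 3.95. The ALK peak spanned chr2:29410408-29410722.

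Among 36 nuclear receptor and transcription cofactor genes, with a median length of 375.9 kb, 5 held a far peak (13.9%, 4.67 to 29.5). Per Mb of gene body more than 50 kb from a RefSeq start they held 0.254 (0.0308 to 0.919), beside 0.369 in all long genes. FOXP1, a forkhead factor, had 7 fragments and a fold of 6.42, RORA, an orphan nuclear receptor, had 6 and 5.40, and NFIB, a nuclear factor I gene, had 6 and 5.32. None of 15 tumour suppressor and DNA maintenance genes over 100 kb held one, which allows up to 21.8%. Over all lists, SDK1, PTPRN2 and CACNA1C held the only far peaks with more than 7 fragments. With 4 to 7 fragments behind every other peak of these lists, differences in fold between their genes were within counting error.

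**Figure D5:**
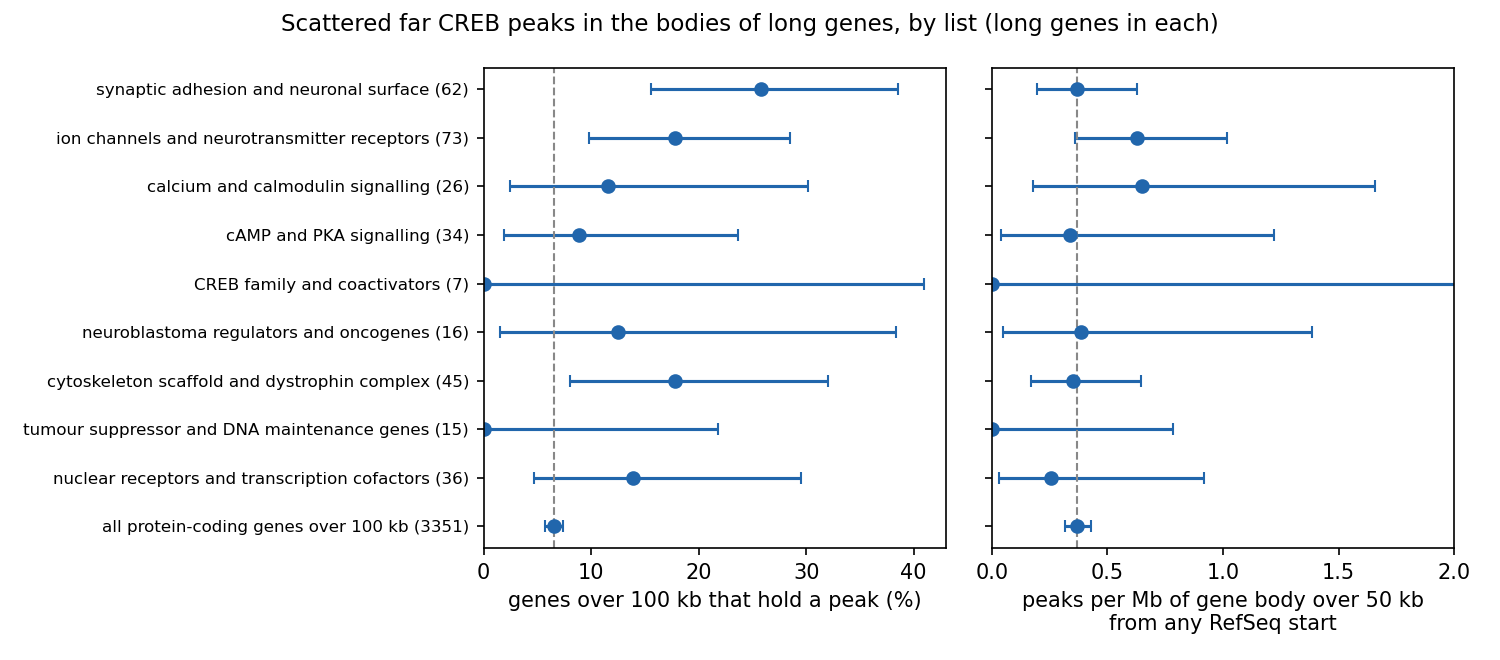
Left, share of genes over 100 kb in each list that hold a far peak (percent, with exact Clopper-Pearson 95% intervals); right, far peaks per Mb of gene body more than 50 kb from any RefSeq start (exact Poisson 95% intervals, the CREB family one running past the axis to 5.98). The dashed lines mark all long protein-coding genes, at 6.51% and 0.369 per Mb; the synaptic adhesion list stands at 25.8% on the left and at 0.366 per Mb on the right.

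The rule takes peaks from bins with few others, so wide spacing was largely fixed by the choice. The median distance to the nearest other summit of the whole list was 436.3 kb (quartiles 120.9 to 1140.6 kb), and 390.8 kb for the TSS-paired scattered peaks. No other summit lay within 10 kb for 685 of the 750 (91.3%, 95% interval 89.1 to 93.2), beside 90.4% of the TSS-paired scattered peaks, or within 1 Mb for 210 (28.0%). Their 750 summits occupied 554 bins of 1 Mb, of which 443 held 1 far peak, and 11 bins with 5 or more held 75. Runs in which each summit lay within 10 kb of the next numbered 23, with 62 peaks in all, and 7 runs held 3 or more.

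The longest runs held no annotated gene, and those on chromosomes 13, 5 and 10 lay in gene-free intervals. A run of 7 at chr13:18015014-18034844 had 5 to 13 fragments and folds of 4.63 to 9.63. One of 6 at chr5:50110995-50129927 had 5 to 10 fragments and folds of 4.56 to 6.34, and one of 5 at chr22:15034483-15054281 had 4 to 7 fragments. On chromosome 10, 3 peaks at 39987046 to 39993303 had 9 to 14 fragments. The run of 3 at chr4:189233639-189235427 had folds of 5.60 to 16.7 within 1147 bp from first to last summit.

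A further run of 3 lay in IGK, the locus of the immunoglobulin kappa light chain, which B cells rearrange and express. It spanned chr2:89829241-89840555, with 19, 38 and 36 fragments over backgrounds of 0.949, 1.90 and 4.11. The same locus held a summit inside the variable segment IGKV2-28, 159 bp from its end (9 fragments, fold 8.03), and one inside IGKV2D-28, 158 bp from its end (8 fragments, fold 7.22). These 2 segments are duplicated copies of each other, so reads from either can be placed on both. The last run of 3 lay among the transfer RNA genes of chromosome 1, at chr1:161443289-161449154. Summits there lay 36 and 374 bp from an end of TRG-GCC1-1, a glycine tRNA gene, and 6 bp inside an end of TRL-CAG1-2, a leucine tRNA gene, with 5, 7 and 5 fragments. One more peak near a tRNA gene, with 4 fragments, lay 497 bp from TRE-TTC2-1 on chromosome 13. Of 443 annotated tRNA genes, 4 had a far summit inside or within 1 kb and 2 had a TSS-paired scattered summit.

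In all, 32 of the 750 summits lay within 1 kb of an end of an annotated gene of any type. Pseudogenes accounted for 19 of these, long noncoding RNA genes for 5, tRNA genes for 4, variable segments for 2 and protein-coding genes for 2. Counted another way, over all annotated genes of a type, 0.138% of pseudogenes had a far summit inside or within 1 kb. That share was 0.605% for long noncoding RNA genes, 0.903% for tRNA genes, 0.806% for variable segments and 1.17% for protein-coding genes. For the TSS-paired scattered peaks the pseudogene share was 0.256%. These shares take in summits anywhere inside a gene, 234 protein-coding genes among them, so they also depend on gene length. The order of the shares therefore cannot be read onto the 32 summits near gene ends. Some pseudogenes near these summits were processed copies of abundant transcripts. The peak at TMSB4XP8, a copy of a thymosin, had 7 fragments and a fold of 6.42, and it also lay within CCSER1. RPS18P12 of a ribosomal protein, HSP90AB2P of a heat shock protein, EIF4A1P12 of a translation factor and PPIAP22 of a cyclophilin had 5 each. The HSP90AB2P summit lay 616 bp outside that pseudogene. LOC345576, a pseudogene on chromosome 5, carried 2 peaks with 9 and 10 fragments over a background of 0.246, at folds of 8.03 and 8.83. DUX4L44, a DUX4-like pseudogene on chromosome 22, carried 1 with 10 fragments, and another with 15 lay 513 bp outside it. ASS1, which encodes argininosuccinate synthase, had a peak 20 bp beyond an end of the gene (6 fragments, fold 5.32), and its pseudogene ASS1P14 on chromosome 12 had one 103 bp inside its end (5 fragments, fold 4.82). A gene and its pseudogene can share sequence, but the bases under these peaks were not read. The placement of their reads is therefore uncertain.

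At the edges of the rule, the TSS-paired peaks nearest to the 50 kb limit lay 49805 bp from PIBF1, 49760 bp from MMEL1 and 49562 bp from UBE3D, with 7, 6 and 4 fragments. Far peaks with a RefSeq start just past 50 kb lay 50207 bp from LOC105369451, 50247 bp from STAG1 and 50437 bp from L3MBTL4-AS1, with 5, 6 and 6 fragments. Bins with 9 peaks numbered 2 and held 10 far peaks with a median fold of 6.26 and 22.5 fragments. The 2 bins with 10 peaks, just outside the rule, held 14 unpaired peaks with a median fold of 7.17 and 18.5 fragments.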

How the data were processed

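ChIP-seq with an anti-CREB antibody was done on NGP cells, and 1 ChIP and 1 input library were made from 4 ng of DNA each with fragments of 250 to 450 bp, per the labels' protocols. Bowtie2, MACS2 and build hg38 are named in the submitters' processing notes, while versions, settings and read filters were not given in the sources used here. Peaks were deposited by the authors with a fold over background, which is a ratio, with −log10 of p and of q, and with a score. The authors deposited a further table that pairs peaks with refGene TSS within 50 kb and repeats the score.

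Python 3.11.15, pandas 2.3.3 and scipy 1.17.1 were used. Fragments and background were recovered by taking fold as (fragments + 1)/(background + 1) and p as the Poisson probability of more fragments. A whole number fitted within 0.001 in −log10 p (a relative 1e-05 above 100) for 750 of 750 far peaks, and the step was tested on simulated data. The depth of the libraries is unknown, and intervals are at 95% and cover counting error only. Gene ends, starts and promoter sequences came from RefSeq GRCh38.p14, and distances to RefSeq starts left out chromosome 8. Peaks per Mb used a 100 bp grid.

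Named regions were the 20 highest folds, up to 3 genes per list by fold, the 10 genes with most far peaks, every run of 3 or more within 10 kb, and the peaks and bins nearest to the limits of the rule. Every other region or gene in the text was picked with its values in view. The 9 gene lists hold 377 entries. The regions and lists were chosen with earlier results of these data known. Alternatives varied the bins, the q threshold, the distance to genes and the peak sets. Some genes of the lists are not reported here by name.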

Additional observations from a re-analysis of the deposited data

How the results depend on the processing

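No paired analysis was possible because each group has 1 library. Of 108 values recomputed, 60 stayed within the counting interval of the reported value (for counts of peaks, within 1.5 times) and 48 did not, listed here with the value in the report in parentheses. Restricting the list to −log10 q of 5 or more left 197 far peaks (750), with a fold median of 7.10 (4.56), 10 fragments (5), 100% at that q (13.6%), a width of 249 bp (208), 6.09% on chromosome 2 (10.1%), 13.2% in protein-coding genes (34.4%), 1.61% of long synaptic genes (25.8%) and 81.7% with no summit within 10 kb (91.3%). With −log10 q of 2 or more these were 465 peaks, 5.17, 6 fragments, 25.4%, 223 bp, 28.8% in genes, 11.3% of synaptic genes and 87.1%. Both lists hold fewer peaks by construction, which also lowers the peaks per bin. With dense bins set at 20 peaks, the fold median was 4.82, the share at −log10 q of 5 was 18.4%, chromosome 2 had 7.74%, genes 26.8% and the spacing share was 84.0%; at 5 peaks the spacing share was 95.5%. In bins of 2 Mb, 10.7% reached −log10 q of 5 and 38.1% lay in genes. Requiring no RefSeq gene end within 50 kb left 326 peaks, with 4.82, 18.7% at −log10 q of 5, 7.06% on chromosome 2, 28.8% in genes, 14.5% of synaptic genes and 88.7% spaced. Peaks over 2 Mb from dense bins and outermost genes gave 4.51, 9.23%, 39.8% in genes and 96.1% spaced, and peaks with no summit within 10 kb were 100% spaced by construction. In alternatives chosen after seeing the data, peaks outside gene-free intervals gave 10.99% at −log10 q of 5, 40.5% in genes and 93.7% spaced. The 102 far peaks with −log10 q of 5 or more (100%) gave 7.25, 11 fragments, 258 bp, 22.5% in genes, 1.61% of synaptic genes and 75.5% spaced. The cause of the other shifts was not tested. With 4 to 6 fragments behind most peaks, single folds carry wide counting error.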
